A study of Homo sapiens with 6 samples.

Results

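The 10 genes described here encode the arginine methyltransferases PRMT1, PRMT2, PRMT3, PRMT5, PRMT6, PRMT7 and CARM1, and the PRMT5 partners WDR77, CLNS1A and COPRS. They were found by gene symbol, 1 row each, among the 23344 rows of the deposited expression table, and all 10 passed the filter on low values that left 13696 genes. The family was chosen by knowledge of its biology after the lower value of PRMT5 in the knockdown libraries was already known from this same comparison. The differences between groups are therefore given for these genes as a description, with a standard error and no p-value, and a call (a Benjamini-Hochberg adjusted p below 0.05 in limma's test over all genes) is only counted.

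RNA was sequenced from Huh7, an established human liver cancer cell line, in 3 control libraries and 3 knockdown libraries. Control cells had received a control lentivirus (labelled shNC) and knockdown cells a lentivirus against the V1 form of versican (labelled sh2, a single hairpin). Both kinds of virus were made in 293T cells and given with polybrene, and the time between infection and harvest is not stated. Cells without virus were not analysed here. Nothing in the labels says whether replicates came from separate cultures, so the spread within a group may be technical.

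Values were treated as FPKM, which scales reads to transcript length and library size, so that levels of different genes within a library can be set side by side. VCAN, the targeted gene, was at 4.79, 6.24 and 8.10 in the control and at 1.90, 1.74 and 1.64 in the knockdown replicates. The hepatocyte genes ALB and AFP were abundant in every library, with control means of 3284 and 1232. Of the 8 hepatocyte markers, TTR fell (-1.19, adjusted p = 0.00770) and APOA1 and FGB rose (1.05, adjusted p = 0.0325, and 0.70, adjusted p = 0.0188), so the list moved in both directions. With 1 library left out, APOA1 and FGB were called without control replicate 1 or knockdown replicate 1 and not otherwise, and TTR in every case. Mitochondrially encoded genes took 16.0% to 19.2% of the summed values in control and 23.8% to 31.2% in knockdown libraries. A rescaling without them was tried for the limma fits only. Overlaps of groups, counts below the lowest control, distances from the control mean, sums, shares, the order of levels and the nearest genes used unrescaled values. Of 8 blood cell markers, 7 were listed, and their summed value was 20.1 to 26.5 in control, 49.1 and 39.8 in knockdown replicates 1 and 3, and 125 in knockdown replicate 2. LYZ, the gene for lysozyme, made up most of that sum in all libraries, while S100A8 was at 17.9 in knockdown replicate 2 and at 0 in the other 5. The part of the hepatocyte and blood markers in the results was not tested. Without knockdown replicate 2 the log2 fold change of PRMT5 was -1.25 and the median of the 10 genes -0.29, against -1.23 and -0.34 with it.

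Protein arginine methyltransferases transfer methyl groups from S-adenosylmethionine to arginine side chains of histones, splicing proteins and other RNA-binding proteins. PRMT1 makes most of the asymmetric dimethylarginine of mammalian cells, PRMT5 most of the symmetric form, and PRMT7 places single methyl groups. PRMT5 works in a complex with equal numbers of the WD-repeat protein WDR77 (also called MEP50). CLNS1A (pICln) brings Sm proteins to that complex for assembly of spliceosomal particles, and COPRS recruits it to histone tails.

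Promoter sequences of the 10 genes were taken from RefSeq (GRCh38.p14) and all 10 matched, with 12 promoters. The windows of PRMT5, which had the largest difference, and PRMT1, the most abundant gene of the family, are shown because they were the only windows in the family with the letters CCAAT on either strand (ATTGG when read on the gene's own strand). This pentamer is the core of the motif bound by the factor NF-Y, and it was picked for the search after the PRMT5 sequence had been seen. The 250 bases before each start are printed from 5′ to 3′ on the gene's strand, with every CCAAT or ATTGG in capitals. The PRMT5 window lies at chr14:22929377-22929626 on the minus strand and the PRMT1 window at chr19:49677021-49677270 on the plus strand.
PRMT5: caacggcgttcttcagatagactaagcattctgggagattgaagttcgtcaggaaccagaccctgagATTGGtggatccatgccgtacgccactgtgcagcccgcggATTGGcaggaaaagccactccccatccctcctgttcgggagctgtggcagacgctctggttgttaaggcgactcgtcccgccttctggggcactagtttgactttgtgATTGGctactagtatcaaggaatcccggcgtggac
PRMT1: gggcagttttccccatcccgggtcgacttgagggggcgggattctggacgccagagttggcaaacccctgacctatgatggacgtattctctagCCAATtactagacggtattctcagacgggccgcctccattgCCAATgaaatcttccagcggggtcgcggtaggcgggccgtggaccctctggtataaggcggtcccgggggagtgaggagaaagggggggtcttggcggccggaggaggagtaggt

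The PRMT5 window held 3 copies, all as ATTGG, beginning 183, 143 and 35 bases before the start. The PRMT1 window held 2 copies, both as CCAAT. Among 35116 RefSeq promoter windows of the same length, 32.0% held at least 1 copy, 9.53% at least 2 and 2.93% at least 3. These matches describe the letters of the windows and say nothing of binding in these cells.

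PRMT5, the main enzyme for symmetric dimethylarginine, was lower in each knockdown library than in each control library. Replicates 1, 2 and 3 of the control stood at 73.1, 84.2 and 83.1, and those of the knockdown at 42.2, 34.1 and 25.9. The groups were far apart, with knockdown replicate 1 the nearest to the controls and replicate 3 the farthest. The mean went from 80.1 ± 6.14 (SD, n = 3) to 34.1 ± 8.12, a value 57.5% lower, with a log2 fold change of -1.23 (SE 0.17) on the log2(value + 1) scale used throughout. Among all genes called lower, PRMT5 had the 21st largest decrease of 539. It was the only one of the 10 genes that was called, and no gene of the family was called higher; at an unadjusted p below 0.05 in limma, 3 were lower and 0 higher. Over all genes tested 3.94% were called lower and 4.15% higher, and at an unadjusted p below 0.05 the shares were 16.0% lower and 13.4% higher. PRMT5 was also the only one of the 10 whose groups did not overlap, which held with the knockdown lower for 18.7% and with the knockdown higher for 14.4% of genes tested. The call was lost without control replicate 2, where the log2 fold change was -1.20.

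The antisense gene PRMT5-AS1 overlaps PRMT5 on the opposite strand in GENCODE 29. It was at 0.66, 0.15 and 0.08 in control and at 1.01, 1.07 and 0.70 in knockdown replicates, below the filter. Whether the counting used strand is not stated, so reads of the overlapping stretch cannot be told apart. PRMT5-AS1 reached at most 1.07 and PRMT5 was never below 25.9, and both values come from the same counting. The part of antisense reads in the PRMT5 difference was not tested.

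**Figure D1:**
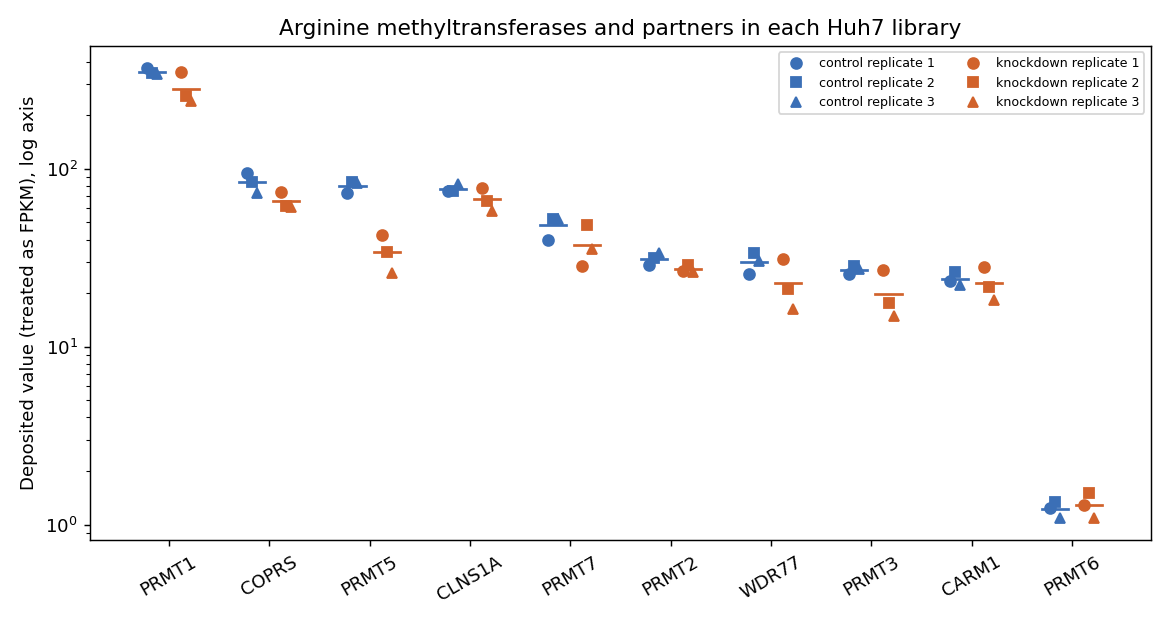
Values (treated as FPKM, log axis) of the 10 genes in the 3 control (blue) and 3 knockdown (orange) libraries, ordered by control mean, with a bar at each group mean and a marker shape for each replicate number. PRMT5 falls from between 73.1 and 84.2 to between 25.9 and 42.2 with no overlap, while the groups of the other 9 genes overlap.

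The partners of PRMT5 were lower by less than PRMT5 itself, and knockdown replicate 1 stayed within the control range for all 3. WDR77, which binds PRMT5 and its substrates, was at 25.6, 33.5 and 30.4 in control and at 30.9, 21.2 and 16.3 in knockdown replicates. Knockdown replicates 2 and 3 were below all controls and knockdown replicate 1 was among them, and the log2 fold change was -0.41 (SE 0.22). It was -0.65 without knockdown replicate 1 and -0.20 without knockdown replicate 3. WDR77 overlaps the ATP synthase subunit gene ATP5F1 on the opposite strand in GENCODE 29. ATP5F1 was 255 to 297 in control and 198 to 222 in knockdown libraries, far above WDR77. Its log2 fold change was -0.43 (adjusted p = 0.0485 in limma), close to that of WDR77. The level and the difference of WDR77 are therefore both uncertain if strand was not used. The same holds for CARM1, which overlaps YIPF2 (41.3 to 53.57 over the 6 libraries, log2 fold change 0.14) on the opposite strand.

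CLNS1A, the carrier of Sm proteins, was at 74.8, 75.1 and 82.0 in control and at 78.5, 65.8 and 58.1 in knockdown replicates, a log2 fold change of -0.20 (SE 0.13). Knockdown replicate 1 again lay in the control range and the other two lay below it, and the value was -0.32 without replicate 1 and -0.10 without replicate 3. COPRS, the link to histones, was at 95.0, 83.8 and 72.8 in control and at 74.3, 61.8 and 60.7 in knockdown replicates. Its log2 fold change was -0.35 (SE 0.14), and knockdown replicate 1 was the one that overlapped the controls, lying between control replicates 2 and 3. None of the 3 partners was called.

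The balance of PRMT5 against its partners shifted in every knockdown library. The ratio of PRMT5 to WDR77 within a library was 2.86, 2.51 and 2.73 in control and 1.36, 1.61 and 1.60 in knockdown replicates 1, 2 and 3. PRMT5 and CLNS1A were about equal in control, with ratios of 0.977, 1.12 and 1.01, and PRMT5 was at 0.537, 0.518 and 0.446 of CLNS1A in knockdown libraries. Against COPRS the ratio was 0.769 to 1.14 in control and 0.427 to 0.568 in knockdown libraries. Against PRMT1 it was 0.199 to 0.244 in control and 0.108 to 0.133 in knockdown libraries. For all 4 ratios the groups were apart, and a ratio within a library does not depend on how that library was scaled. These ratios share the PRMT5 value and so are not separate evidence. The ratio to WDR77 is also uncertain through the overlap of WDR77 with ATP5F1.

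**Figure D2:**
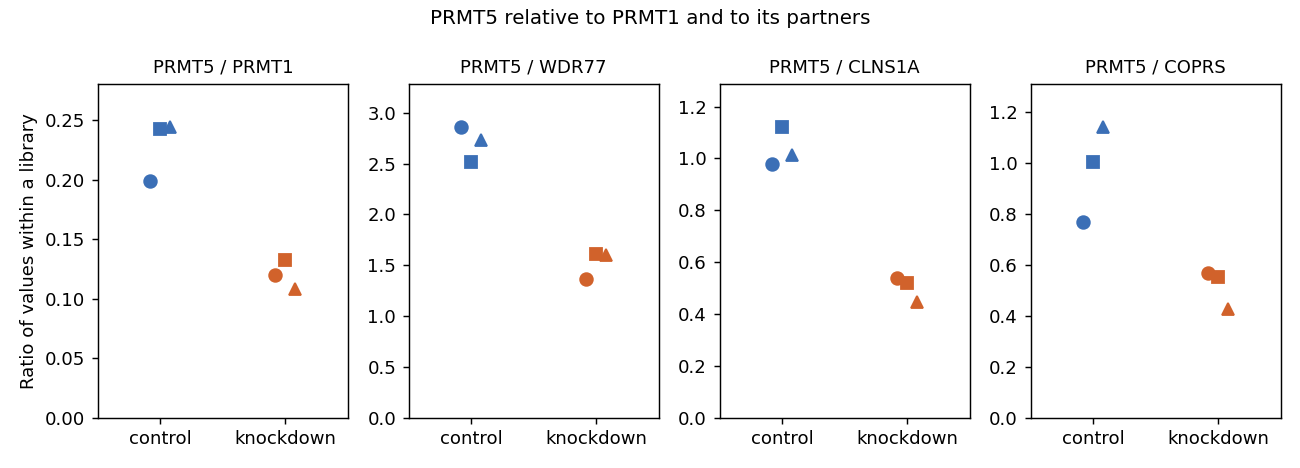
Ratio of the PRMT5 value to that of PRMT1, WDR77, CLNS1A or COPRS within each library, in 3 control (blue) and 3 knockdown (orange) libraries; the marker shape gives the replicate number (circle 1, square 2, triangle 3), and each axis starts at 0. In each panel all knockdown libraries lie below all control libraries, for WDR77 at 1.36 to 1.61 against 2.51 to 2.86.

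PRMT1, the main source of asymmetric dimethylarginine, had the highest level of the 10 genes. It was at 367, 347 and 340 in control and at 350, 257 and 240 in knockdown replicates. Knockdown replicate 1 lay among the controls, and replicates 2 and 3 were well below them. The means were 351 ± 13.8 (SD, n = 3) and 282 ± 59.6, and the log2 fold change was -0.33 (SE 0.15). PRMT3, a cytosolic enzyme that methylates the ribosomal protein RPS2, followed the same order. Its values were 25.5, 28.6 and 27.4 in control and 27.0, 17.6 and 14.9 in knockdown replicates, a log2 fold change of -0.48 (SE 0.20), which was -0.30 without knockdown replicate 3. That was the largest difference in the family after PRMT5, and the SD was 6.36 over the knockdown and 1.55 over the control libraries.

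PRMT7, the monomethylating enzyme, differed in another way among the knockdown libraries. It was at 39.9, 52.4 and 52.5 in control and at 28.3, 48.6 and 35.5 in knockdown replicates, so that here replicate 2 lay in the control range and replicate 1 was the lowest. The log2 fold change was -0.38 (SE 0.20), and it was -0.20 without knockdown replicate 1 and -0.58 without knockdown replicate 2. PRMT2, an enzyme of weak activity that acts as a coactivator of nuclear receptors, was at 28.65, 31.46 and 33.65 in control and at 26.62, 28.96 and 26.35 in knockdown replicates. Its log2 fold change was -0.19 (SE 0.12), with a slight overlap between control replicate 1 and knockdown replicate 2.

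CARM1, a coactivator that methylates histone H3 and RNA-binding proteins, was at 23.5, 26.2 and 22.1 in control and at 28.1, 21.6 and 18.4 in knockdown replicates. The knockdown libraries lay on both sides of the controls. Its log2 fold change was -0.09 (SE 0.16), and it turned to 0.01 once mitochondrially encoded genes were left out of the scaling and to 0.04 without knockdown replicate 3. PRMT6, a nuclear enzyme that methylates histone H3, was near the filter at 1.24, 1.34 and 1.09 in control and 1.29, 1.5 and 1.09 in knockdown replicates. Its log2 fold change of 0.04 (SE 0.17) was the only one of the 10 above 0, and it was -0.04 with quantile normalization. For genes this low the pseudocount of 1 shrinks any difference.

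Of the 10 genes, 9 had a log2 fold change below 0, against 53.5% of all genes tested, and the median was -0.34 against -0.03 over all genes. Once mitochondrially encoded genes were left out of the scaling, 8 were below 0 and the median was -0.23 against 0.06 over all genes, with PRMT2 at -0.08 and CLNS1A at -0.10. The median was -0.21 without knockdown replicate 3. The knockdown libraries did not contribute alike to this. The counts and distances given next for each library use the deposited scale, and they were not repeated with the rescaling. In knockdown replicate 1, 3 of the 10 genes (PRMT5, PRMT7 and PRMT2) were below the lowest control library, in replicate 2 it was 7 and in replicate 3 it was 9, all but PRMT6. Of all genes tested, 37.6%, 33.1% and 39.2% were below the lowest control in knockdown replicates 1, 2 and 3. The median distance from the control mean of the 9 genes other than PRMT5 was -0.003, -0.23 and -0.42 (log2) in these libraries, while PRMT5 was at -0.91, -1.21 and -1.59. Without knockdown replicate 1, 5 of the 10 genes were called lower (PRMT5, PRMT1, PRMT3, WDR77 and COPRS), beside 12.8% of all genes tested in that fit.

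**Figure D3:**
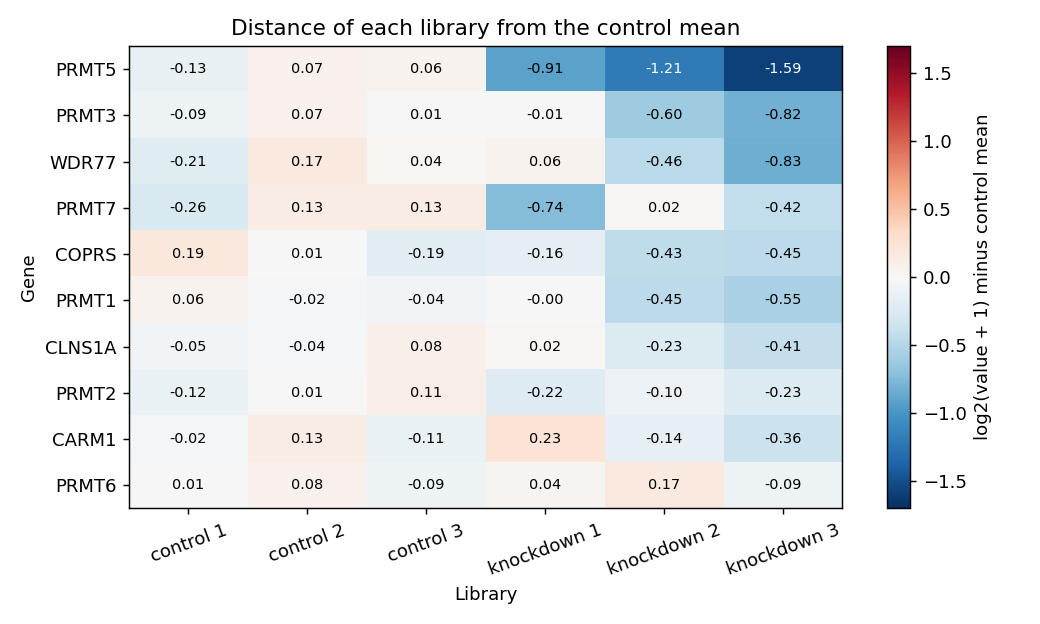
Difference of log2(value + 1) from the control mean for each of the 10 genes (rows, ordered by log2 fold change) in each library (columns), with blue below and red above the control mean. PRMT5 is lower in all 3 knockdown libraries (-0.91, -1.21 and -1.59), while PRMT1, PRMT3, WDR77 and CLNS1A are near 0 in knockdown replicate 1 and lower in replicates 2 and 3.

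The levels of the 10 genes spanned from a control mean of 1.22 for PRMT6 to 351 for PRMT1. PRMT1 stood 4.19 times above the next gene. COPRS, PRMT5 and CLNS1A, with control means of 83.9, 80.1 and 77.3, came next and did not differ beyond their ranges. PRMT7 followed at 48.3, apart from its neighbours on both sides. PRMT2, WDR77, PRMT3 and CARM1 lay between 31.3 and 23.9, each overlapping the next in the order, and CARM1 was 19.6 times above PRMT6. By knockdown mean PRMT5 lay below CLNS1A, COPRS and PRMT7.

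The summed value of the 7 methyltransferases was 559, 571 and 560 in control and 504, 409 and 362 in knockdown replicates, and each knockdown library was below each control. PRMT1 made up 60.7% to 65.6% of that sum in control and 62.8% to 69.5% in knockdown libraries. The PRMT5 share was 13.1%, 14.8% and 14.8% in control and 8.37%, 8.34% and 7.17% in knockdown replicates, with no overlap. PRMT7 took 7.15% to 9.38% in control and 5.62% to 11.9% in knockdown libraries, which overlapped.

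The genes whose pattern over the 6 libraries was nearest to that of PRMT5 were NHP2, GPX3, SOX13, NT5E and MYCN, by the root-mean-square difference of their mean-centred log2 values. NHP2, a protein of the box H/ACA snoRNA particles, was nearest (0.084), with 268, 281 and 275 in control and 166, 120 and 97.0 in knockdown replicates. GPX3, a secreted glutathione peroxidase, was at a distance of 0.111 and the other three were at 0.127 to 0.130. Like PRMT5, all 5 were lowest in knockdown replicate 3 and highest among the knockdown libraries in replicate 1. This likeness follows largely from how the 5 were chosen and is not a separate result. The member nearest to PRMT5 was PRMT3 at 0.389, which placed it 708th among all other genes tested, and WDR77 was 1015th at 0.421.

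Related genes were looked up in 6 lists of substrates, regulators and cofactor enzymes, of which 80 distinct genes were tested. In all, 6 of the 80 were called lower and 2 called higher, beside 3.94% and 4.15% of all genes tested. The median log2 fold change was -0.20. In the counts for each list below, fell and rose mean called lower and called higher. With mitochondrially encoded genes left out of the scaling, the counts were 3 and 2 and the median -0.10, and with limma without trend and robust moderation the counts were 2 and 2. Without knockdown replicate 1 these counts were 28 and 4, beside 12.8% and 11.7% of all genes in that fit, and they were 0 and 0 without control replicate 1, without control replicate 2, without knockdown replicate 3 or with no filter on low values. Without control replicate 3 the counts were 1 and 0, and without knockdown replicate 2 they were 0 and 1. Calls over all genes, in either direction, numbered 1107 in the main fit. Leaving out control replicate 1, 2 or 3 brought this total to 166, 56 or 244. Leaving out knockdown replicate 2 or 3 brought it to 111 or 194, and the unfiltered fit had 221. Low counts in the lists thus came with few calls over all genes in those fits.

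Sm proteins, the classic substrates of PRMT5 with CLNS1A, and the SMN complex that loads them onto snRNA, made up the list of 20 genes. Of these 2 fell and 0 rose, beside 3.94% called lower and 4.15% called higher over all genes. At an unadjusted p below 0.05 in limma 8 were lower and 0 higher, against 16.0% and 13.4% of all genes. A log2 fold change below 0 was found for 15 of the 20, against 53.5% of all genes, and the median was -0.31. GEMIN2, the SMN complex subunit that holds the Sm proteins, fell from 18.8, 20.5 and 16.4 in control to 10.9, 10.5 and 8.51 in knockdown replicates (-0.84, SE 0.14, adjusted p = 0.0189). STRAP, an SMN-associated WD-repeat protein, fell from 172, 178 and 175 to 133, 113 and 114 (-0.54, SE 0.11, adjusted p = 0.0263). Both were lower in all 3 knockdown libraries, including replicate 1. With 1 library left out, GEMIN2 was called without control replicate 3 or knockdown replicate 1 and STRAP without knockdown replicate 1, and not otherwise. Over 14 alternatives the highest adjusted p was 0.0874 for GEMIN2 and 0.108 for STRAP. The methylated Sm proteins did not pass: SNRPB had a log2 fold change of -0.45 (adjusted p = 0.0692), SNRPD1 of -0.23, SNRPD3 of -0.07 and the Sm-like LSM4 of -0.30. SMN1 and SMN2 are near-identical copies whose reads are uncertain.

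Among 22 substrates of PRMT1, PRMT3 and PRMT5, most of them RNA-binding proteins, 3 fell and 0 rose, with a median of -0.26. Over all genes 3.94% were called lower and 4.15% higher. At an unadjusted p below 0.05 in limma 7 were lower and 0 higher, against 16.0% and 13.4% of all genes. MRE11A, a DNA repair nuclease, fell from 10.97 to 7.18 (-0.54, adjusted p = 0.0445). RBMX, a splicing regulator, fell from 301 to 211 (-0.51, adjusted p = 0.0320), and HNRNPA2B1, an hnRNP that PRMT1 methylates, fell from 1453 to 1083 (-0.43, adjusted p = 0.0499). Over 14 alternatives MRE11A and RBMX were each called in 5 and HNRNPA2B1 in 3, and none of the 3 with mitochondrially encoded genes left out of the scaling. With 1 library left out, these 3 were called only when it was knockdown replicate 1. The log2 fold change of HNRNPA2B1 was nearest to 0 with quantile normalization, at -0.25. RBMX and HNRNPA2B1 have processed copies elsewhere in the genome. RPS2, the ribosomal substrate of PRMT3, averaged 3328 ± 98.6 (SD, n = 3) and 2439 ± 303, a difference that missed the threshold (-0.45, adjusted p = 0.0518). Of 10 CARM1 partners and substrates, 0 were called in limma's test, 2 were lower and 0 higher at an unadjusted p below 0.05, and the median was -0.03, as over all genes.

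The methyl donor list covered enzymes that make S-adenosylmethionine, use it or clear its products. Of 15 tested, 1 rose and 0 fell, beside 4.15% called higher and 3.94% called lower over all genes. At an unadjusted p below 0.05 in limma 1 was higher and 3 lower, against 13.4% and 16.0% of all genes. The median was -0.20 against -0.03 over all genes. With mitochondrially encoded genes left out of the scaling these medians were -0.10 and 0.06. NNMT, which spends S-adenosylmethionine on nicotinamide, rose from 4.09, 7.04 and 6.17 to 67.8, 20.3 and 24.0 (2.32, SE 0.41, adjusted p = 0.0212), and knockdown replicate 1 was the highest here. With 1 library left out NNMT was called only without knockdown replicate 1 or 2. MAT2A, the S-adenosylmethionine synthetase of most tissues outside adult liver, had a log2 fold change of -0.37 and AHCY, which clears S-adenosylhomocysteine, one of -0.34, and neither passed (adjusted p = 0.222 for MAT2A and 0.138 for AHCY). MTAP, which removes the PRMT5 inhibitor methylthioadenosine, was present in all libraries at means of 10.1 ± 0.88 (SD, n = 3) in control and 8.73 ± 1.37 in knockdown, a difference that did not pass (-0.20, adjusted p = 0.414). MAT1A, the synthetase of adult liver, was at means of 0.33 and 0.557.

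The list of other methyltransferases and regulators had 6 genes tested, of which 1 rose and 0 fell (also at an unadjusted p below 0.05). Its median was 0.11. For this list and the next, the shares over all genes were 4.15% called higher and 3.94% called lower. At the unadjusted threshold they were 13.4% and 16.0%. BTG2, an antiproliferative protein that binds PRMT1, rose from 6.84, 6.35 and 5.32 to 10.4, 22.6 and 28.5 (1.48, SE 0.31, adjusted p = 0.0302), and with 1 library left out it was called only without knockdown replicate 1. Over 14 alternatives BTG2 was called in 7. BTG1, its relative, was at 53.4 ± 5.75 (SD, n = 3) and 59.8 ± 9.31 and did not pass (0.15, adjusted p = 0.523). RIOK1, an adaptor that competes with CLNS1A for PRMT5, was at 13.6 ± 0.335 and 16.7 ± 3.30 and did not pass (0.26, adjusted p = 0.294). PRMT9, listed under its older symbol PRMT10, was at 3.95 ± 0.421 and 4.18 ± 0.89. PRMT8 was not analysed here. Among 7 readers of methylarginine and enzymes of free methylarginine, 1 fell and 0 rose (2 and 1 at an unadjusted p below 0.05), with a median of -0.12. It was DDAH1, which breaks down free asymmetric dimethylarginine (18.5, 20.1 and 17.4 to 14.2, 9.35 and 7.80; -0.82, SE 0.20, adjusted p = 0.0436). Over 14 alternatives DDAH1 was called in 3, which were the other pseudocount, the filter on all 6 libraries and the fit without knockdown replicate 1.

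Cell division genes were lower at the same time, with 6 of 10 called lower, 0 called higher and a median of -0.74, against 3.94% called lower over all genes. At an unadjusted p below 0.05 in limma all 10 were lower, against 16.0% of all genes. Their median distance from the control mean was -0.65, -0.69 and -0.99 in knockdown replicates 1, 2 and 3. Knockdown replicate 1 was low for cell division genes and for PRMT5. The other 9 genes of the family had a median near 0 there, but ranged from -0.74 for PRMT7 to 0.23 for CARM1. MKI67, the proliferation marker, averaged 34.4 ± 6.93 (SD, n = 3) against 21.1 ± 4.86 and did not pass (-0.69, adjusted p = 0.0635). The number of cell division genes called lower was 0 without control replicate 1 or 2, and 2 without control replicate 3 or knockdown replicate 3. It was 3 without knockdown replicate 2 and 9 without knockdown replicate 1. Among all genes tested, 539 were called lower in the main fit. Leaving out control replicate 1, 2 or 3 gave 40, 6 or 62 such genes. Leaving out knockdown replicate 1, 2 or 3 gave 1711, 32 or 56. The counts for cell division genes thus fell and rose together with calling over all genes. The part of proliferation in the PRMT5 difference was not tested.

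**Figure D4:**
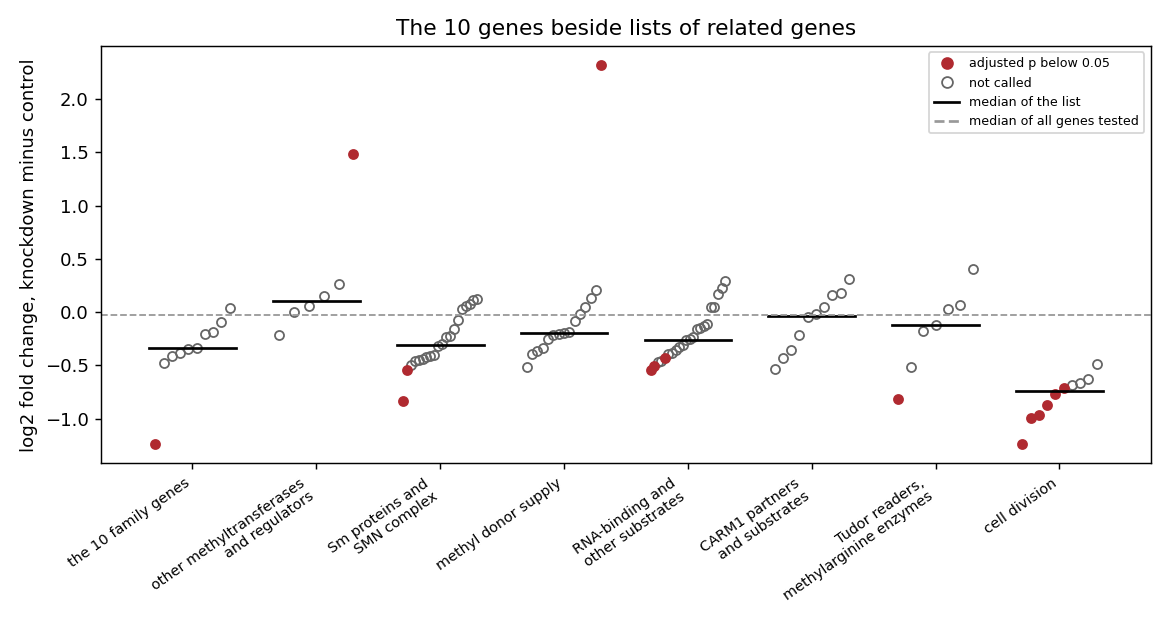
Log2 fold change (knockdown minus control) of each gene tested in the family of 10, in the 6 lists of related genes and in the cell division list, ordered by value within a list, with filled red points for an adjusted p below 0.05 and a bar at each median. PRMT5 (-1.23) lies apart from the other 9 family genes (-0.48 to 0.04), and the cell division list has the lowest median (-0.74).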

How the data were processed

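The authors deposited 1 table with 23344 human genes and 1 column per library. Its unit is not named; the values are not whole and sum to between 851418 and 975501 per library, and they were treated as FPKM made by the authors (TPM of an incomplete gene set cannot be told apart). The submitters' processing notes list, with no roles, the programs DESeq2 1.16.1, edgeR 3.18.1, RSEM 1.1.17 and Bowtie2 2.2.6, and a mouse build, although all IDs are human. Read depth is unknown, so no counting intervals were computed.

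The 13696 genes that reached 1 in 3 or more libraries were tested on log2(value + 1) with limma 3.58.1 in R 4.3.3 (trend and robust moderation, two-sided, Benjamini-Hochberg over all genes tested), and an adjusted p below 0.05 was called. After the fit, the same test was run on simulated data with the means and spreads of these genes. In each simulated set 200 genes were changed, and noise was drawn separately for each gene with no shift shared within a library. It recovered 26.8% of 1.5-fold, 68.3% of 2-fold and 96% of 4-fold changes, placed in genes above a low level. Of its calls 4.16% were false. In the data 1107 genes were called and the mitochondrial share differed between groups, so these rates are those of the simulation only. Since most 1.5-fold changes were missed even there, a small difference that did not pass is not shown to be absent. With 3 libraries against 3, calls rest on the spread shared over genes. The members, lists and naming rule (all members, called list genes, set substrates and cofactor enzymes, and the 5 genes nearest to PRMT5) were chosen with earlier results of these data known. Protein sequences were not used here. Gene overlaps came from GENCODE 29 and promoters from RefSeq. Alternatives were other pseudocounts, filters, scalings and variance models, a replicate block and leaving out each library.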

Additional observations from a re-analysis of the deposited data

How the results depend on the processing

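PRMT5 kept its direction under all 14 alternatives. Its log2 fold change ranged from -1.40 (without knockdown replicate 1) to -1.06 (without knockdown replicate 3) with 1 library left out, and it was called in 13 of 14, all but the one without control replicate 2 (-1.20). It was -1.25 without knockdown replicate 2, the library with the highest sum of blood cell markers. It was -1.13 with mitochondrially encoded genes left out of the scaling and -1.23 with the replicate block. The count of members called did not change with the block. With that block 8 of the 80 related genes were called lower and 1 higher, and BTG2, MRE11A, HNRNPA2B1 and DDAH1 were not among them. The number of the 10 genes called lower was 1 in 12 alternatives and ranged from 0 (without control replicate 2) to 5 (without knockdown replicate 1) with 1 library left out; none was called higher in any. The log2 fold change of CARM1 changed sign in 2 alternatives and that of PRMT6 in 3, none of them called, and the other 8 genes kept theirs. The deviations of libraries with the same number correlated at 0.053, 0.105 and 0.135. For control replicates 2 and 3 this was the highest correlation with any knockdown library. Control replicate 1 correlated more with knockdown replicate 3 (0.080) than with knockdown replicate 1. The labels name no pairs, so libraries were not paired in the main fit, and the replicate block was kept as an alternative.

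Over all genes, 568 were called higher and 539 lower. With no filter on low values these were 157 and 64, without trend and robust moderation 450 and 277, and scaled without the mitochondrially encoded genes 673 and 221. With 1 library left out the total called ranged from 56 to 3284. Over the alternatives, the all-gene median ranged from -0.06 to 0.06 (log2). The cause of these changes was not tested.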
